A study of Mus musculus with 8 samples.

Results

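The genes described here are 38 genes of S phase, the part of the cell cycle in which DNA is copied, of the 32285 features counted in these nuclei. The 38 members were chosen by symbol as genes of DNA replication and of the enzymes that serve it, and the rule uses no measured value, although the list was drawn up when earlier results of these data were known. All 38 were found in the feature list and in the GENCODE vM21 annotation of GRCm38, on 17 chromosomes. Single-nucleus RNA sequencing was performed on the petrous temporal bone (PTB), the part of the skull that houses the inner ear, and on the paraflocculus and flocculus (PF/F), the cerebellar lobules that lie in a pocket of that bone. The animals were P5.5 wild-type (WT) mice and mice with 1 functional copy of the transcription factor gene Tbx1 (Tbx1+/-). Each tissue and genotype had 2 libraries, whose replicate numbers are taken here as batches, and each library held nuclei of 5 pooled mice. The replicates are therefore libraries of pooled mice, no group was treated, and the Tbx1 mutation is constitutive, so that every cell of a Tbx1+/- mouse carries it. Nothing in the labels ties a nucleus to a mouse.

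During the cell cycle, origins of replication are licensed by loading of the MCM helicase, and in S phase the helicase is activated and polymerases copy the DNA while histones and deoxynucleotides are supplied. Transcription of most of these genes is driven by E2F factors and peaks around the entry into S phase, so that cells which have left the cycle read them little. In the postnatal cerebellum, granule neuron progenitors (GNPs) divide in the external granular layer before they become granule neurons, and in growing bone the progenitors of cartilage and bone divide before they mature.

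The annotated nuclei numbered 5981 to 9977 per PTB library and 9153 to 13835 per PF/F library, with medians of 3853 to 4758 and 2610 to 3503 unique molecular identifiers (UMIs) per nucleus. The members held 30055 to 39214 UMIs per library in the PTB and 50758 to 72110 in the PF/F. Levels are given in CPM, the UMIs of a gene or of the 38 members per 1000000 UMIs of the same nuclei. Reads of introns were counted, so that longer genes gather more UMIs and levels are compared within a gene or within the member sum, not between genes. Tbx1 was at 38.9 and 39.4 CPM in the WT and at 26.3 and 35.7 CPM in the Tbx1+/- libraries of the PTB, and at 0.0949 to 0.265 CPM, or 4 to 13 UMIs, in the PF/F libraries. Between any pair of the 8 libraries 35 to 94 cell barcodes were shared, at most 0.652% of the smaller library. Cell types are the deposited annotation, with 15 types in the PTB and 16 in the PF/F. CP1 to CP6 are its chondrocyte progenitors and CT1 to CT4 its connective tissue types, GABA denotes GABAergic interneurons and RL.early an early rhombic lip type.

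Of the 38 members, 28 had a promoter in the RefSeq table of GRCm38.p6, which gives the 250 bases before and 50 bases after a gene's start. The E2F words TTTCCCGC, TTTGGCGC, TTTCGCGC and TTTGCCGC, searched on both strands, stood in 11 of these 28 promoters (39.3%) and in 2.26% of all 32851 promoters. Among 46 further replication genes that are not members, 39 had a promoter and 10 (25.6%) held such a word, and among 36 genes of the G2 and M phases 2 of 31 (6.45%) did. The word CCAAT, which NF-Y binds, stood in 71.4% of the member promoters, in 83.9% of the G2/M promoters and in 37.4% of all promoters. TTTGAA, the cell cycle homology region of genes read late in the cycle, stood in 14.3% of the member promoters, near the 17.9% of all promoters, and in 71.0% of the G2/M promoters. The following stretches are examples, not the full set, and are shown because they hold an E2F word, in capitals, upstream of the gene as both RefSeq and GENCODE place it. Each is written 5′ to 3′ on the strand of its gene, and a word on the opposite strand appears as its reverse complement.
Mcm5, chr8:75109334-75109393, plus strand: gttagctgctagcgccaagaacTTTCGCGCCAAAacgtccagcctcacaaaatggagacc
Mcm6, chr1:128359719-128359778, minus strand: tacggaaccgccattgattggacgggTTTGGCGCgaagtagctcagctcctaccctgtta
Dtl, chr1:191575545-191575578, minus strand: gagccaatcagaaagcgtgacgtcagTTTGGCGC
Pola1, chrX:93632260-93632319, minus strand: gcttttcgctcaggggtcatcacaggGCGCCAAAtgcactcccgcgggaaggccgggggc
Casp8ap2, chr4:32615268-32615327, plus strand: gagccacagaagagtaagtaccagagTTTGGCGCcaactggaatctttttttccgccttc
In Mcm5 a word of each strand overlaps, which gives the longer run in capitals. A matching word is a description of the sequence, and binding was not measured.

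The first question was in which types the members are read. In the PF/F, GNPs stood first. Their member sum was 3847 CPM in the WT and 4089 CPM in the Tbx1+/- library of batch 1, then 3629 CPM and 3753 CPM in those of batch 2, a mean of 3830 ± 195 CPM (SD, n = 4). Progenitors of GABAergic interneurons followed at 2655, 2931, 2789 and 2739 CPM in the same order, a mean of 2778 ± 116 CPM (SD, n = 4). GNPs were above these progenitors in 4 of 4 libraries, and these progenitors above the next type, immune cells at 1758 ± 359 CPM (SD, n = 4), in 4 of 4. Oligodendrocytes at 1493 ± 211 CPM and astroglia at 1278 ± 133 CPM (SD, n = 4) kept their order in 4 of 4 libraries, whereas the order among immune cells, pericytes and endothelial cells changed between libraries. Pericytes and endothelial cells had as few as 12 and 15 nuclei in a library.

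Neurons were at the low end. Differentiated granule neurons had 999, 967, 765 and 743 CPM in WT and Tbx1+/- of batch 1 and batch 2, a mean of 869 ± 133 CPM (SD, n = 4), so that GNPs were at 4.41 times their level. Purkinje cells were lowest at 573 ± 88.0 CPM (SD, n = 4), and the order of the 3 lowest types, the types named GABA.interneuron and Progenitors and Purkinje cells, was not kept in all libraries. The 152 nuclei named Progenitors had 468 to 768 CPM of the members and thus overlapped with Purkinje cells at 467 to 667 CPM. The defining markers of GNPs, Atoh1, Barhl1 and Mfap4, summed to 558, 577, 596 and 583 CPM in the GNPs of WT 1, Tbx1+/- 1, WT 2 and Tbx1+/- 2 and to 97.8 to 125 CPM in differentiated granule neurons, as the label implies.

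In 13 of the 16 PF/F types both batch 1 libraries were above both batch 2 libraries, and the ratio of the batches ran from 0.983 to 1.38. The mitochondrial share of UMIs moved with the batch, at 0.967% and 1.05% in batch 1 and 0.407% and 0.564% in batch 2. Its part in the member levels was not tested. Ratios of the genotypes are taken within batch below. The main genotype tests carry no batch term, and tests with the batch as a block are given beside them.

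In the PTB the members were read at lower and more even levels, from 461 to 1395 CPM over the 15 types, against 573 to 3830 CPM in the PF/F. CP2 had 1355, 1474, 1339 and 1412 CPM in WT 1, Tbx1+/- 1, WT 2 and Tbx1+/- 2, a mean of 1395 ± 61.3 CPM (SD, n = 4). The nuclei annotated as hypertrophic chondrocytes or osteoblasts had 1317 ± 105 CPM and CT3 had 1288 ± 60.9 CPM (SD, n = 4). These 3 types exchanged places between libraries and are not separated by these data. The other chondrocyte progenitors ran from 672 ± 31.7 CPM in CP5 to 888 ± 79.7 CPM in CP1 (SD, n = 4), and osteoblasts at 619 ± 52.0 CPM were above matured osteoblasts and osteocytes at 461 ± 67.0 CPM (SD, n = 4) in 4 of 4 libraries.

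The markers of the PTB types bear on these labels. Alpl, Bglap, Runx2 and Sp7, which mark osteoblasts, summed to 4725 ± 216 CPM in CP2 and to 1065 ± 238 CPM in CP5, against 6550 ± 315 CPM in osteoblasts (SD, n = 4). The cartilage genes Col2a1, Acan and Sox9 summed to 1247 ± 143 CPM in CP2, 1968 ± 228 CPM in CP5 and 553 ± 123 CPM in the hypertrophic chondrocyte/Osteoblasts type (SD, n = 4). CP2 thus held more RNA of these osteoblast markers, taken as a sum, than CP5 did. The paper reports Alpl and Bglap in hypertrophic chondrocytes too, so the sum does not tell such cells from osteoblasts. The hypertrophic chondrocyte/Osteoblasts type was low in these cartilage genes. None of them is a marker of hypertrophic cartilage, so they do not judge its label. The names of the annotation are kept here as names of groups of nuclei.

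Matured chondrocytes had 997, 875, 1881 and 1036 CPM of the members in WT 1, Tbx1+/- 1, WT 2 and Tbx1+/- 2, from 147, 48, 138 and 254 nuclei. The WT library of batch 2 stood apart. Erythroid markers, the 6 genes Hba-a1, Hba-a2, Hbb-bs, Hbb-bt, Alas2 and Slc4a1, summed to 13323 CPM in the matured chondrocytes of that library and to 935 to 1198 CPM in those of the other 3. The part of erythroid RNA or nuclei in its member sum was not tested. Without that library the mean of matured chondrocytes was 969.5 CPM and that of the chondrocyte progenitors 944.8 CPM.

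**Figure D1:**
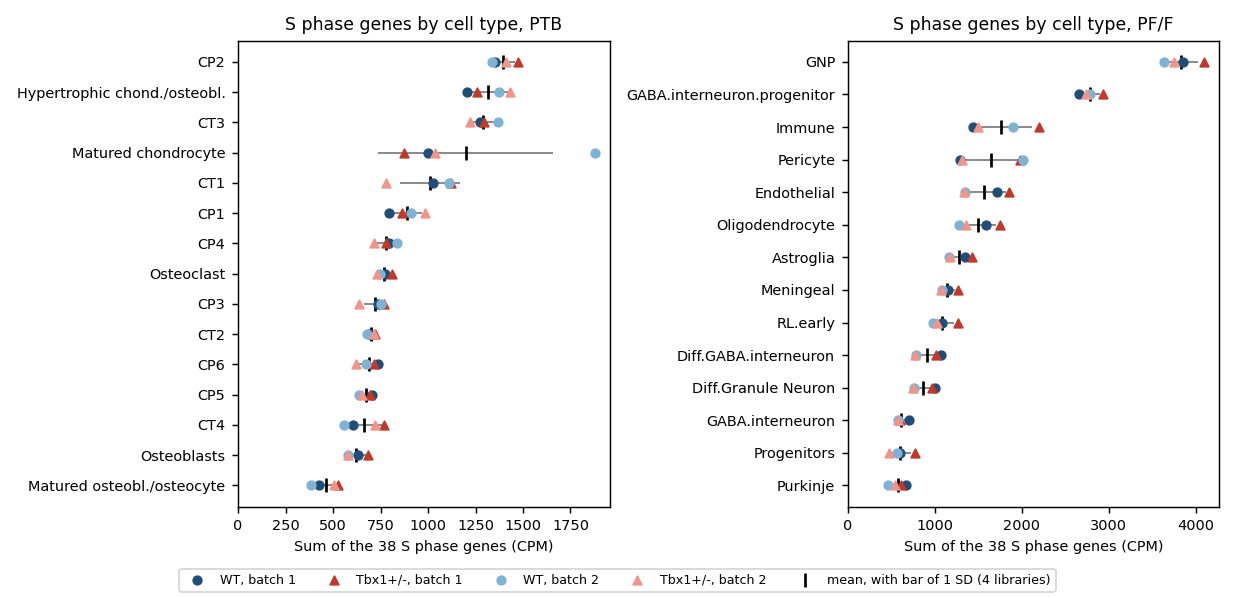
Sum of the 38 S phase genes in CPM (horizontal axis) in each of the 15 annotated types of the PTB and in the PF/F types reported here. Each point is 1 library, coloured by genotype and batch, the tick is the mean and the grey bar 1 SD of 4 libraries. GNPs at 3629 to 4089 CPM lie apart from all other PF/F types, while PTB types overlap and 1 matured chondrocyte library lies at 1881 CPM.

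A sum over a type can rest on a few nuclei that read the members strongly or on many that read them weakly, and fewer cycling nuclei and less RNA per cycling nucleus cannot be told apart in the sum. Nuclei were therefore thinned to 1500 UMIs each, and those with at least 3 member UMIs were counted as rich in S phase RNA. In GNPs 82.0%, 85.3%, 79.5% and 81.1% were rich in WT and Tbx1+/- of batch 1 and batch 2, a mean of 82.0 ± 2.42% (SD, n = 4). In progenitors of GABAergic interneurons the mean was 62.9 ± 3.09%, in differentiated granule neurons 14.5 ± 3.39% and in Purkinje cells 6.53 ± 2.66% (SD, n = 4). Only 1.99% to 3.40% of GNPs had no member UMI, against 27.5% to 39.5% of differentiated granule neurons. Member RNA was thus present in most GNPs.

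Free RNA, which gives UMIs in nuclei that do not read a gene, was not removed from these counts, and the shares in differentiated neurons are given as the background measured the same way. Before thinning, 93.7% of GNPs and 41.5% of differentiated granule neurons had 3 member UMIs or more, at median depths of 2294 to 2966 and 2572 to 3483 UMIs. To be thinned, 224 GNPs of 9404 and 86 differentiated granule neurons of 18286 were too shallow.

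In the PTB the rich nuclei were a minority of every type. CP2 had 22.0%, 26.8%, 24.0% and 23.0% in WT and Tbx1+/- of batch 1 and batch 2, a mean of 23.9 ± 2.09%, CT3 had 24.0 ± 1.23% and the hypertrophic chondrocyte/Osteoblasts type 20.6 ± 1.87% (SD, n = 4). CP5 had 7.27 ± 1.89% and matured osteoblasts and osteocytes 4.24 ± 1.54% (SD, n = 4). The rich nuclei of CP2 held 66.2% to 71.3% of its member UMIs, against 21.8% to 33.8% in CP5. In CP2 29.1% to 35.5% of nuclei had no member UMI, against 38.3% to 40.7% of CP5. CP2 had the longer tail, with a 99th percentile of 11 to 13 member UMIs per thinned nucleus against 4 to 6.

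Nuclei rich in G2/M RNA, counted by the same rule over the 36 G2/M genes, were set against those rich in S phase RNA. Of the GNPs rich in S phase RNA, 67.9% were also rich in G2/M RNA, against 65.8% of all GNPs. Of the 6040 GNPs rich in G2/M RNA 85.0% were rich in S phase RNA, against 82.4% of all GNPs. Since 7563 of the 9180 GNPs were rich in S phase RNA, all GNPs are largely the same nuclei. The shares must then lie close together, and they cannot be set against those of CP2, where 23.8% were rich in S phase RNA. In CP2 46.8% of the nuclei rich in S phase RNA were rich in G2/M RNA, against 16.7% of all CP2 nuclei. In differentiated granule neurons this share was 20.5%, against 8.69% of all. These shares are pooled over libraries and were not tested.

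**Figure D2:**
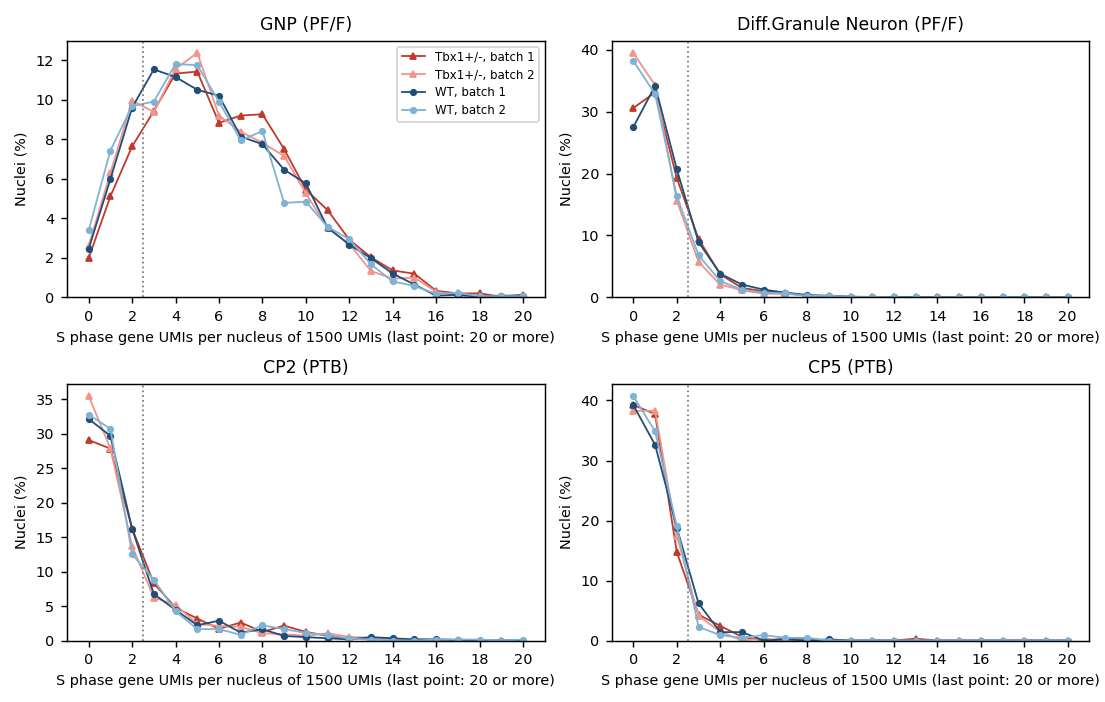
Share of nuclei (percent, vertical axis) by number of S phase gene UMIs after thinning to 1500 UMIs (horizontal axis) in GNPs, differentiated granule neurons, CP2 and CP5, with 1 line per library. The dotted line marks the limit of 3 UMIs. GNPs peak at 3 to 5 UMIs per nucleus, differentiated granule neurons and both PTB types at 0 or 1, and CP2 has a longer tail than CP5.

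The next question was whether each member follows the step from progenitor to differentiated cell. Types were defined by clustering of the same nuclei, so these comparisons are counts without a test. In the PF/F, 38 of 38 members were higher in GNPs than in differentiated granule neurons in 4 of 4 libraries, as were 47.4% of all 21433 genes compared. The median log2 ratio of the members was 2.10, and that of all genes was 0.18. Between progenitors of GABAergic interneurons and their differentiated type, 38 of 38 members were again higher in 4 of 4 libraries, against 36.3% of genes, with a median log2 ratio of 1.54.

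The further replication genes and the G2/M genes were also higher in GNPs, by different amounts. Of the 46 replication genes outside the members 46 were higher in GNPs in 4 of 4 libraries, with a median log2 ratio of 1.88. Those with most UMIs were Rfc1, the large subunit of the clamp loader (206 against 73.3 CPM), Esco2, an acetyltransferase of cohesin (191 against 13.9 CPM), E2f1 (163 against 33.6 CPM) and the origin subunit Orc3 (160 against 119 CPM). Of the 36 G2/M genes 36 were higher, with a median of 2.83, among them Top2a (728 against 73.2 CPM) and Mki67 (252 against 49.7 CPM). Of 9 genes linked to cell cycle exit and the G1 cyclins, 7 were higher in GNPs and 2 lower. Those higher were the G1 cyclins Ccnd1, Ccnd2 and Ccnd3 and the exit genes Cdkn1b, Cdkn1c, Cdkn2c and Rb1, so that genes of exit went in both directions. Ccnd2 was at 514 against 160 CPM, while the pocket protein gene Rbl2 (69.4 against 88.1 CPM) was lower. The other gene that was lower, named after its values were seen, was the p21 gene Cdkn1a (4.07 against 4.83 CPM).

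The PTB pairs were less uniform. Between the summed chondrocyte progenitors and matured chondrocytes, 0 of 38 members were higher in the progenitors in 4 of 4 libraries and 7 were lower, while 31.4% of all genes were higher and 11.7% lower. Without the WT library of batch 2 that stands apart, 5 members were higher and 8 lower in 3 of 3, against 38% and 14.4% of all genes. CP2 gave 23067 of the 56263 member UMIs of the summed progenitors, and its osteoblast markers were at 4725 CPM against 1065 CPM in CP5. Between osteoblasts and matured osteoblasts or osteocytes, 20 of 38 members were higher in 4 of 4 libraries, against 24.8% of genes, with a median log2 ratio of 0.57.

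A pair of comparisons was added after the levels had been seen. CP2 exceeded CP5 in 35 of 38 members in 4 of 4 libraries, against 25.2% of genes, with a median log2 ratio of 1.20. The hypertrophic chondrocyte/Osteoblasts type exceeded osteoblasts in 36 of 38 members, against 35.6% of genes, with a median of 0.98. Since the types were picked for their member sums, the direction of these counts is a description. In CP2 36 of 36 G2/M genes, but 36 of the 46 further replication genes, were higher than in CP5 in 4 of 4 libraries.

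The members are taken up by role, each with its level in GNPs and differentiated granule neurons and then in CP2 and CP5. The 6 MCM genes encode the ring-shaped helicase that unwinds the DNA at the fork. Mcm6 was at 111 and 125 CPM in WT and Tbx1+/- GNPs of batch 1 and at 124 and 126 CPM in those of batch 2, against 20.3, 22.6, 16.9 and 12.6 CPM in differentiated granule neurons, a ratio of means of 6.71. Mcm5 was at 40.9, 40.5, 35.4 and 33.2 CPM in the same GNP libraries and at 7.88 ± 1.62 CPM in the neurons (SD, n = 4), a ratio of 4.76. Mcm7 had the lowest ratio of the 6 genes, 2.78, with 138 ± 10.2 against 49.7 ± 8.21 CPM (SD, n = 4). The 6 genes thus differed in ratio although their products are parts of 1 complex. In CP2 Mcm7 was at 26.1 ± 0.826 CPM and in CP5 at 23.0 ± 6.13 CPM (SD, n = 4), a difference within the spread of CP5, while the other 5 were higher in CP2 in 4 of 4 libraries.

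Of the 7 genes of origin licensing, firing and the fork checkpoint, Dtl and Clspn had the largest ratios in the PF/F pair. In the PTB pair these were Clspn and Cdc6. Dtl, the substrate receptor of the ligase that removes Cdt1 in S phase, was at 119, 131, 140 and 152 CPM in GNPs of WT 1, Tbx1+/- 1, WT 2 and Tbx1+/- 2 and at 12.5 ± 0.830 CPM in differentiated granule neurons (SD, n = 4), a ratio of 10.8. Clspn, the adaptor through which stalled forks activate Chk1, was at 118 ± 7.25 against 11.8 ± 3.17 CPM (SD, n = 4), a ratio of 10.0. In CP2 Clspn was at 40.7, 36.1, 48.8 and 47.0 CPM and in CP5 at 9.41, 10.9, 9.99 and 6.38 CPM, with no overlap. Cdc6, which loads the helicase onto origins, had ratios of 7.81 in the PF/F pair and 4.33 in the PTB pair. Ccne2, the cyclin E that starts S phase, had 2.83 and 1.56, the lowest of this group in both. Gmnn, the inhibitor of Cdt1, Gins2, a subunit of the active helicase, and Tipin, which stabilises the fork, had ratios of 3.51 to 3.65 in the PF/F pair.

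Among the 6 genes of priming and of the sliding clamp, Pola1, the catalytic subunit of polymerase alpha, was at 320 and 349 CPM in WT and Tbx1+/- GNPs of batch 1 and at 394 CPM in both of batch 2, and at 66.0 ± 2.25 CPM in differentiated granule neurons (SD, n = 4). Its ratio was 5.52, and Prim1, the primase that works with it, was at 5.41. Pcna, the clamp itself, was at 103, 107, 85.2 and 90.1 CPM in GNPs and at 48.6, 46.0, 28.4 and 30.2 CPM in the neurons, a ratio of only 2.51 with a clear shift between batches in the neurons. Rfc2, a subunit of the loader that opens the clamp, had the lowest ratio of all members at 2.07. Dscc1, of the loader variant that serves cohesion, had 5.21, and the flap nuclease gene Fen1 had 3.20. In the PTB pair Dscc1 reached 5.25, from 7.70 ± 0.490 CPM in CP2 and 1.47 ± 0.731 CPM in CP5 (SD, n = 4), with no overlap.

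The 3 genes of deoxynucleotide supply were close to each other. Tyms, which makes thymidylate, was at 92.9, 98.7, 101 and 97.2 CPM in GNPs and at 19.2 ± 3.23 CPM in differentiated granule neurons (SD, n = 4), a ratio of 5.08. Rrm1 and Rrm2, the large and small subunits of ribonucleotide reductase, had 3.89 and 4.47. In CP2 over CP5 the ratios were 2.72 for Tyms, 2.39 for Rrm1 and 3.18 for Rrm2, higher in 4 of 4 libraries for all 3.

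The 8 genes of histone supply and chromatin had ratios from 2.63 to 9.60 in the GNP pair. Atad2, a bromodomain ATPase, was at 289, 286, 269 and 302 CPM in GNPs against 29.9 ± 3.77 CPM in differentiated granule neurons (SD, n = 4), a ratio of 9.60. Nasp, a chaperone of histone H3, was at 632 and 662 CPM in the GNPs of batch 1 and 479 and 494 CPM in those of batch 2, against 168 ± 44.2 CPM in the neurons (SD, n = 4). Hells, a remodelling ATPase needed for DNA methylation, its activator Cdca7 and Uhrf1, which brings Dnmt1 to newly copied DNA, had ratios of 5.47, 5.90 and 6.39. Chaf1b, of the assembly factor CAF-1, had 7.03, Slbp, which binds histone mRNA, 2.91, and Casp8ap2, which acts in histone gene transcription, 2.63. The mean of Chaf1b was higher in osteoclasts of the PTB, at 49.1 CPM, than in GNPs, at 27.7 CPM. The next PTB type for Chaf1b, matured chondrocytes, was at 15.0 CPM. In the PTB pair Cdca7 did not follow Hells, at 15.2 ± 2.48 CPM in CP2 and 16.5 ± 1.67 CPM in CP5 (SD, n = 4), whereas Hells was at 72.5 ± 6.38 and 22.7 ± 2.03 CPM (SD, n = 4).

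Of the 7 repair genes, Brip1, a helicase that works with Brca1, had the largest ratio of all members in both pairs. It was at 112, 121, 117 and 131 CPM in GNPs and at 9.61 ± 1.15 CPM in differentiated granule neurons, a ratio of 12.5, and at 59.1 ± 6.42 CPM in CP2 and 9.76 ± 2.42 CPM in CP5 (SD, n = 4), a ratio of 6.05. Exo1, the exonuclease of mismatch repair, had ratios of 9.91 and 4.41, and Rad51ap1, a partner of the recombinase, 6.34 and 3.50. Wdr76, Ung, which removes uracil, and the helicase gene Blm had 4.69, 4.50 and 3.97 in the PF/F pair. Usp1, which removes ubiquitin from the clamp, was the exception. Its ratio was 2.33 in the PF/F pair, and in the PTB it was at 43.5 ± 4.77 CPM in CP2 and 50.6 ± 7.47 CPM in CP5 (SD, n = 4), lower in CP2 in 4 of 4 libraries though with overlap between libraries.

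E2f8, the transcriptional repressor that closes the E2F programme late in S phase, is the only transcription factor among the members. It was at 28.6, 33.3, 38.5 and 39.8 CPM in GNPs and at 2.99 ± 0.796 CPM in differentiated granule neurons (SD, n = 4), a ratio of 11.7, and at 13.0 ± 1.56 CPM in CP2 and 3.02 ± 1.64 CPM in CP5 (SD, n = 4), a ratio of 4.30.

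**Figure D3:**
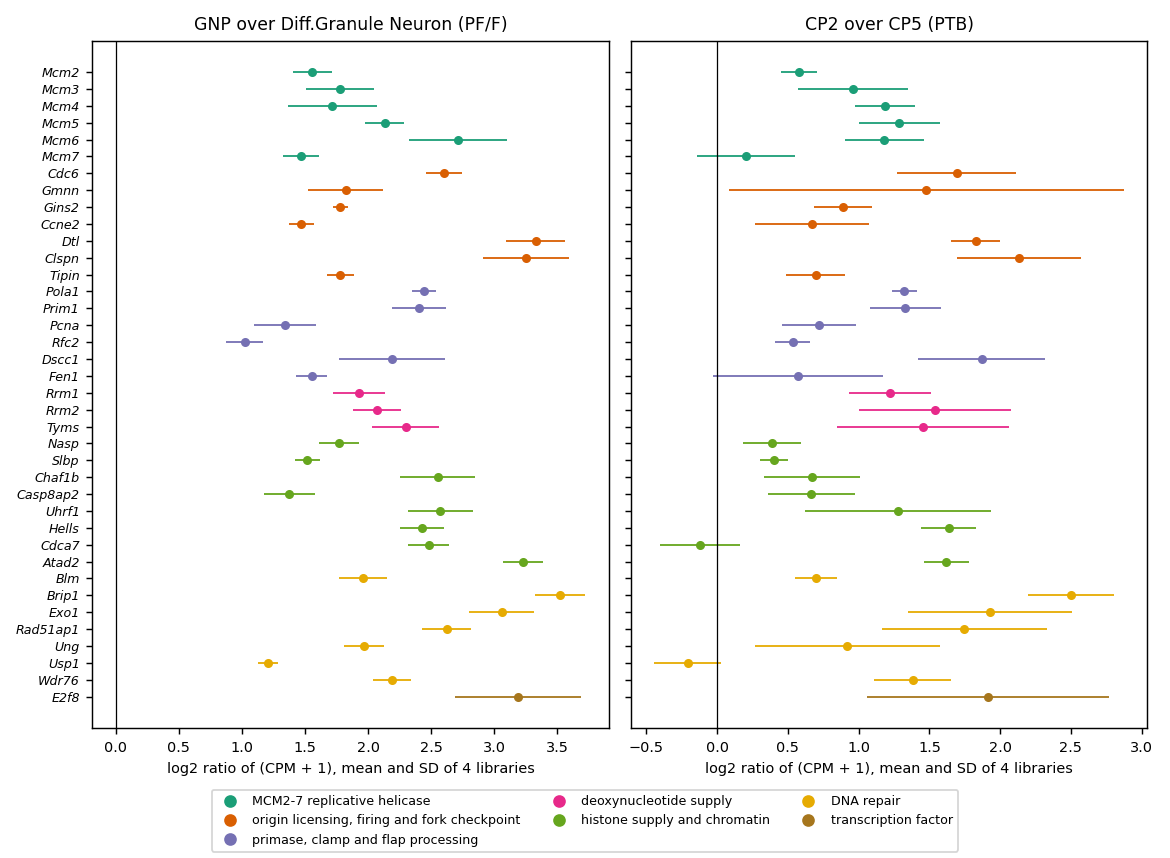
Log2 ratio of CPM + 1 for each of the 38 S phase genes, GNPs over differentiated granule neurons (left) and CP2 over CP5 (right), coloured by role. Points are means and bars 1 SD of the ratios in 4 libraries. All 38 points lie above 0 on the left, from Rfc2 at 1.02 to Brip1 at 3.52, while on the right Cdca7 (-0.12) and Usp1 (-0.21) lie below 0 and Mcm7 (0.20) is near it.

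Among the PF/F types with at least 20 nuclei in every library, which leaves out pericytes and endothelial cells, all 38 members had their highest mean in GNPs. Leaving out any 1 library gave 37, with immune cells highest for Rfc2 without the WT library of batch 2 and for Mcm3 without each of the other libraries, from 29 Mcm3 and 56 Rfc2 UMIs in immune cells in all. In the PTB the highest type was CP2 for 13 members, matured chondrocytes for 9, CT3 for 8, the hypertrophic chondrocyte/Osteoblasts type and osteoclasts for 3 each and CP5 for 2. Without the WT library of batch 2, whose matured chondrocytes stand apart, matured chondrocytes were highest for 2 members, CP2 for 15, and CT3 and the hypertrophic chondrocyte/Osteoblasts type for 7 each. Leaving out another library gave 11 to 14 members highest in matured chondrocytes and 9 to 11 in CP2. Across the 31 types of both tissues, the log2 level of a member correlated with that of the other members at Pearson's r from 0.25 to 0.96, with a median of 0.85. These points share libraries, depth and free RNA, so r is given as a description. It was above 0.8 for 26 members and highest for Tyms, Rad51ap1 (0.94) and Hells (0.93). It was below 0.5 for 4 members, Gins2 (0.44), Usp1 (0.37), Rfc2 (0.34) and Casp8ap2 (0.25).

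Of these 4, Casp8ap2 was at 71.6 ± 8.38 CPM in GNPs and at 64.8 ± 21.6 CPM in matured chondrocytes (SD, n = 4), where the WT library of batch 2 had 97.1 CPM and the other 3 had 53.7 to 54.3 CPM. Its promoter holds an E2F word like those of Mcm6 and Dtl above. Rfc2 was at 45.5 ± 1.23 CPM in GNPs, at 43.6 ± 4.02 CPM in immune cells and at 36.2 ± 4.62 CPM in osteoclasts (SD, n = 4), so that its level in GNPs was within the spread of that in immune cells.

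The 10 genes outside the members whose log2 level was most like that of the member sum over the 31 types were Cenpk, Kif23, Esco2, Atad5, Smc2, Top2a, Kif15, Haus5, Cenph and Sgo1, at r from 0.95 to 0.96. The member sum and the sum of the 36 G2/M genes correlated at r = 0.972 over the 15 PTB types and 0.965 over the 16 PF/F types, again as a description.

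The design asks whether the members differ between WT and Tbx1+/- mice. Across 32 fits, to 29 types with at least 20 nuclei in every library, the summed chondrocyte progenitors and all annotated nuclei of each tissue, edgeR's quasi-likelihood test called 0 members at an adjusted p under 0.05 with a change above 1.5-fold. DESeq2 called 0 members as well. The smallest adjusted p of a member was 0.999 (edgeR). Of all genes, 0% were called in GNPs, in the chondrocyte progenitors and in both sets of all annotated nuclei, and 1 gene, no member, was called in 1 type. At an unadjusted p under 0.05, 10 of 859 tests of members in the 29 types were higher and 3 lower in Tbx1+/-, or 1.51%, against 1.58% of the tests of all genes. With the batch as a block, 32 were higher and 20 lower, or 6.05%, against 4.13% of the tests of all genes, and 0 members were called. Leaving out 1 library gave a single call of a member, Rad51ap1 in astroglia without the WT library of batch 1, which leaves that batch to Tbx1+/- alone, at a log2 change of 1.22 with a standard error of 0.27 and an adjusted p of 0.0093 (edgeR). With all libraries Rad51ap1 in astroglia was at 27.3 and 11.5 CPM in WT and 34.4 and 19.1 CPM in Tbx1+/- of batch 1 and batch 2, higher in Tbx1+/- in both batches with overlap across them.

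In GNPs 0 of 38 members and 0 of 15361 genes were called, with 0 members and 139 genes (0.905%) below an unadjusted p of 0.05. DESeq2 called 0 genes, with 20 below that limit. With the batch as a block, 0 members and 3 genes were called, and at an unadjusted p under 0.05 Exo1, Wdr76, Uhrf1, Mcm2, Rad51ap1 and Blm were higher and Gins2 was lower, or 7 of 38 members against 4.52% of genes. The median log2 change of the members was 0.08, with 30 of 38 above 0, against 0.00 for all genes. The largest changes were those of Exo1 and Gins2. Exo1 was at 46.3 and 37.0 CPM in WT and 59.5 and 45.2 CPM in Tbx1+/- of batch 1 and batch 2, a log2 change of 0.35 with a standard error of 0.19. Gins2 was at 50.4 and 68.5 CPM in WT and 47.5 and 46.8 CPM in Tbx1+/-, a change of -0.31 with a standard error of 0.17. For Exo1 the genotypes overlap across batches but are ordered within each, and for Gins2 both Tbx1+/- libraries were below both WT libraries.

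Within batch, the member sum of Tbx1+/- GNPs was 1.06 and 1.03 times that of WT, a mean log2 ratio of 0.068 with an SD of 0.028 over the 2 batches. Both Tbx1+/- libraries were above both WT libraries in 8 of 38 members, against 10.2% of all genes compared in GNPs, and below them in 2, against 13.5%. Tbx1+/- was above WT in both batches in 17 of 38 members, against 22.2% of genes. Among GNPs with at least 2000 detected genes the mean log2 ratio of the member sum was 0.0061. With 2 libraries of each genotype, the smallest p that an exact permutation test allows is 0.33.

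The PF/F types, GNPs included, did not share a direction. The member sum of Tbx1+/- was above that of WT in both batches in 4 of the 14 types with enough nuclei, below it in both in 5 and divided in 5. Differentiated granule neurons, the daughters of GNPs, were at 0.969 and 0.972 times the WT level. Progenitors of GABAergic interneurons were at 1.10 in batch 1 and 0.982 in batch 2.

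In the PTB, 0 of 38 members and 0 of 17894 genes were called in the summed chondrocyte progenitors, with 0 members and 150 genes (0.838%) below an unadjusted p of 0.05. DESeq2 called 0 genes, with 36 below that limit. Their member sum was at 918 and 947 CPM in WT and at 968 and 948 CPM in Tbx1+/- of batch 1 and batch 2, so that the genotypes were level in batch 2. The median log2 change of the members was 0.06, and both Tbx1+/- libraries were above both WT libraries in 7 members, against 10.5% of genes.

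In single PTB types, where 0 members were called, the member sum of 6 of the 15 types was higher and of 3 lower in Tbx1+/- in both batches and 6 were divided. These differences of the sum were not tested. CP1, CP2, CT2, CT4, the hypertrophic chondrocyte/Osteoblasts type and matured osteoblasts or osteocytes were higher, and CP4, CP6 and matured chondrocytes lower. CT4 had 604 and 556 CPM in WT and 766 and 721 CPM in Tbx1+/-, and its member sum was 1.27 and 1.30 times that of WT. Matured osteoblasts or osteocytes had 427 and 385 CPM in WT and 527 and 507 CPM in Tbx1+/-, from 306 to 683 member UMIs. In this type 20 of the 34 members with at least 10 UMIs were above WT in both batches, against 27.9% of genes. In CT4 it was 14 of 36, against 26.5%. The member sums of the Tbx1+/- libraries lay above those of the WT libraries without overlap in both types and also in CP2, at 1355 and 1339 CPM in WT and 1474 and 1412 CPM in Tbx1+/-, and in CT2, at 689 and 680 CPM in WT and 719 and 714 CPM in Tbx1+/-. In CP4 they lay below, at 794 and 837 CPM in WT and 778 and 715 CPM in Tbx1+/-. The share of nuclei rich in member UMIs did not follow the sum in each batch in CT4, matured osteoblasts or osteocytes, CP1, CP2, CP4 and CP6. In CT4 it was 6.07% and 6.07% in WT and 10.4% and 5.12% in Tbx1+/- of batch 1 and batch 2, from 11 to 17 rich nuclei. In matured osteoblasts or osteocytes it was 4.69% and 2.05% in WT and 4.53% and 5.69% in Tbx1+/-, from 3 to 13 rich nuclei. In CT2 it was 5.88% and 9.36% in WT and 9.70% and 9.65% in Tbx1+/-. In batch 2 of CT2 these were 25 of 267 and 25 of 259 nuclei, so the shares were level there. The share had the direction of the sum in both batches in the hypertrophic chondrocyte/Osteoblasts type, at 18.6% and 19.8% in WT and 20.8% and 23.0% in Tbx1+/-. It also did in matured chondrocytes, with as few as 6 rich nuclei in a library. These are directions only, and the shares were not tested. The G2/M sum of CT4 was 447 and 426 CPM in WT and 665 and 423 CPM in Tbx1+/-, level in batch 2. That of matured osteoblasts or osteocytes was 417 and 316 CPM in WT and 486 and 426 CPM in Tbx1+/-, higher in Tbx1+/- in both batches.

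In matured chondrocytes 21 of 37 members were below WT in both batches, against 27.7% of genes, and the batch 2 difference rests on the WT library with 13323 CPM of erythroid markers. The divided types included CT1, at 779 CPM in the Tbx1+/- library of batch 2 from 118 nuclei and 1025 to 1119 CPM in the other 3.

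Among single members of the PTB, Uhrf1 had the smallest unadjusted p, 0.012, in CP2, at 13.5 and 14.6 CPM in WT and 23.7 and 20.7 CPM in Tbx1+/- of batch 1 and batch 2. Its log2 change was 0.67 with a standard error of 0.20 and an adjusted p of 1.00 (edgeR). Exo1 and Prim1 were the other 2 members with an unadjusted p under 0.05 in CP2, against 1.64% of all genes, with log2 changes of 0.56 and 0.38. In CT4 these were Brip1, Pola1 and Rfc2, against 2.71% of genes, and Brip1 rested on 3 and 9 UMIs in WT and 16 and 17 UMIs in Tbx1+/-. The 36 G2/M genes had a median log2 change of 0.05 in GNPs and 0.18 in the chondrocyte progenitors, and the 46 further replication genes 0.03 and 0.05, with 0 genes of either list called.

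**Figure D4:**
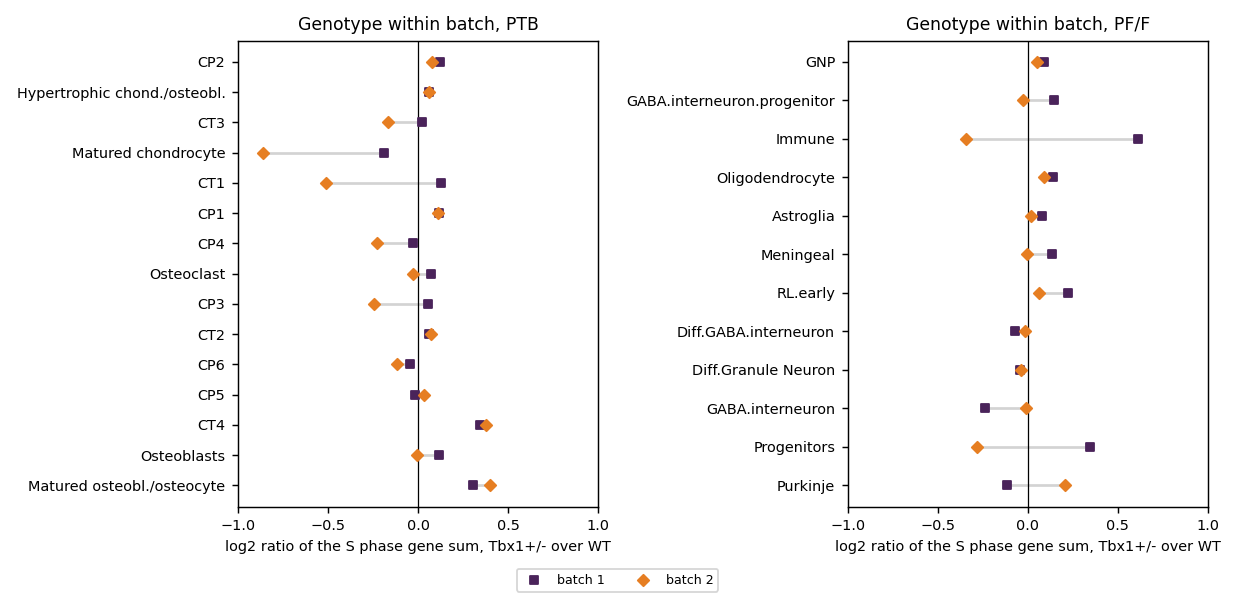
Log2 ratio of the S phase gene sum, Tbx1+/- over WT, within batch 1 (squares) and batch 2 (diamonds), in the types reported here with at least 20 nuclei in every library, ordered by member level. GNPs lie at 0.09 and 0.05 and CP2 at 0.12 and 0.08, while matured chondrocytes reach -0.86 in batch 2 and immune cells spread from 0.61 to -0.35.

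**Figure D5:**
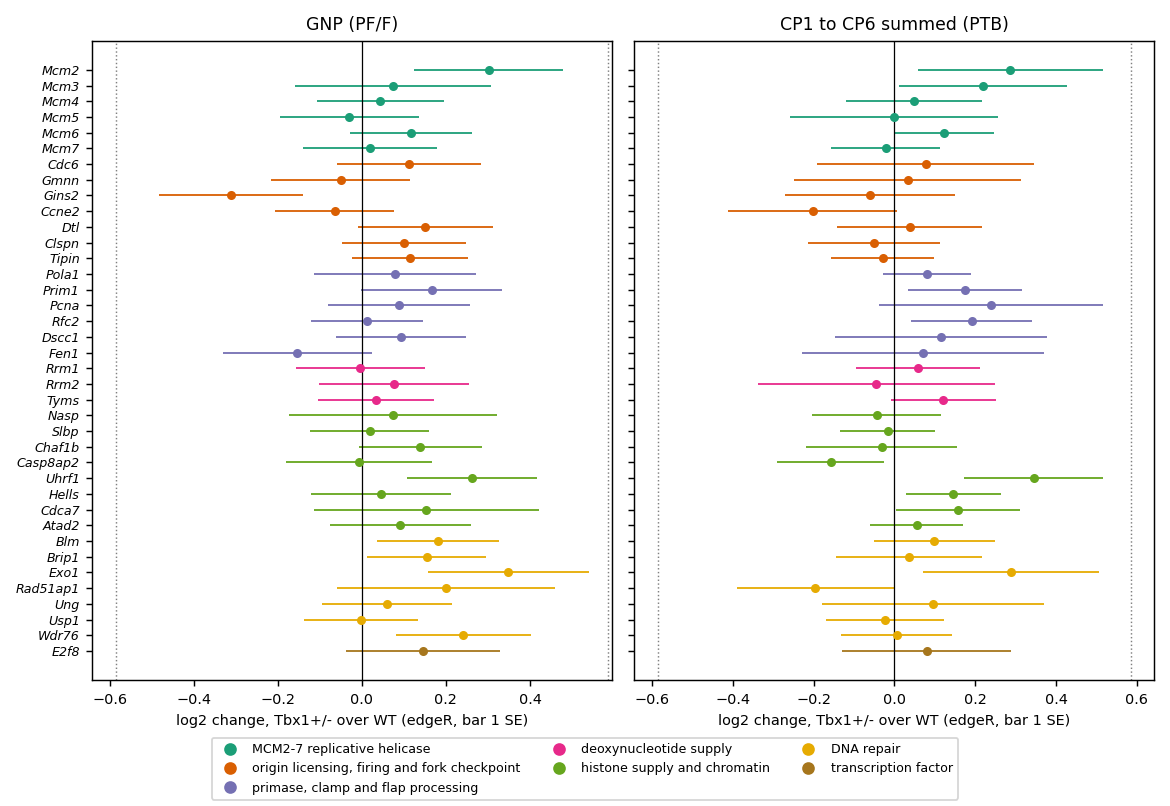
Log2 change of each S phase gene between Tbx1+/- and WT in GNPs (left) and in the summed chondrocyte progenitors (right), by edgeR, with bars of 1 standard error. Dotted lines mark a change of 1.5-fold. All points lie between these lines, from -0.31 for Gins2 to 0.35 for Exo1 in GNPs and from -0.20 to 0.34 in the chondrocyte progenitors, and 0 members were called.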

How the data were processed

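The 8 libraries are deposited as raw UMI counts, which the authors made with Cell Ranger 7.0.0 in intron mode on mm10, without their later SoupX correction. Expected counts, taken here to be the UMIs per nucleus left by the authors' correction, come with the PF/F annotation. They were not used here, and their column header does not name the correction.

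Nuclei were grouped by the deposited annotation, and UMIs were summed per library and type. Levels are CPM of annotated nuclei. Types were not tested against each other, since they come from clustering of these nuclei. Genotypes were compared with edgeR 4.0.16 (filterByExpr, TMM, quasi-likelihood test, Benjamini-Hochberg adjustment over all genes tested) in R 4.3.3, with DESeq2 1.42.0 as the second tool. The fits were repeated with RLE size factors, without the filter, with a replicate block, and over nuclei with at least 2000 detected genes, and after leaving out the 8% of nuclei with most UMIs as possible doublets or each library in turn, where the lone library left is assumed to vary like the other genotype. No doublet caller was run. Levels were computed with Python 3.11.15, numpy 2.4.6 and pandas 2.3.3, and figures with matplotlib 3.10.9.

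The paper reports separate batches of each genotype but ties no replicate number to a batch. Libraries with the same number are taken as a batch here. As a check, deviations of same-numbered libraries from their genotype's mean correlated across genes at 0.146 to 0.550 in the PF/F types and 0.156 to 0.478 in the PTB types. Genes are not independent replicates. Each library is a pool of 5 mice, and the fits without the block carry no batch term. Their p-values thus measure a spread between libraries that holds both pools and batches.

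The tests were run on simulated data. The simulated counts held no shift shared by the libraries of a batch, so their rates need not hold in the real libraries. With a true log2 change of 1 in 200 genes, 43.0% of these were called by edgeR in GNPs (15361 genes) and 46.0% in the chondrocyte progenitors (17894 genes), with 7 and 23 false calls, so that smaller changes can go uncalled at this size.

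The members, their roles, the other lists and the tests were chosen with earlier results of these data known, although the rule for the members uses symbols and no measured value. Named were all members, up to 4 genes with most UMIs of each other list, and the 10 genes most like the member sum with a mean of at least 5 CPM. The members with the smallest unadjusted p were named too. All 9 genes of cell cycle exit and the G1 cyclins were named after their counts were seen. Some PF/F types, with the member of smallest p in them, and a marker gene are not reported here. Intervals of counts cover counting error only. Promoters are from RefSeq, and the 10 members not matched there are Mcm4, Gmnn, Gins2, Ccne2, Tipin, Rfc2, Dscc1, Atad2, Exo1 and Usp1.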

Additional observations from a re-analysis of the deposited data

Results flagged for a closer look

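The barcodes without an annotation in the PTB, which enter no comparison above, had a member sum of 867 and 818 CPM in WT and 934 and 880 CPM in Tbx1+/- of batch 1 and batch 2. The lowest Tbx1+/- library, at 879.8 CPM, was thus above both WT libraries, and the ratio was not tested. These 32101 barcodes include 8128 with fewer than 1500 UMIs. Erythroid markers were at 896 to 2118 CPM in them, and their part in the member sum was not tested. Nor was the part of a differing mix of cell types, which the deposited annotation does not give for these barcodes. In the PF/F the barcodes without an annotation had 1394 and 1181 CPM in WT and 1508 and 1178 CPM in Tbx1+/-, without such a separation.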

How the results depend on the processing

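In GNPs 0 members were called under every alternative. The replicate block, which assumes that libraries with the same number share a batch, gave 0 members called in each of the 32 fits. It gave 3 genes called in GNPs against 0 without it. With the block 6 members in GNPs were higher and 1 lower at an unadjusted p under 0.05, against 4.52% of all genes. Over the 32 fits 131 genes were called with the block, 127 without the filter on low counts, 2 with DESeq2 and 1 with the fits as reported. Leaving out a library gave 1 to 2 genes called in GNPs and 0 to 1 members over the other types, the 1 being Rad51ap1 in astroglia without WT replicate 1, and 49 to 849 genes over the 32 fits. Without the 8% of nuclei with most UMIs 31 of the 32 fits could be made. In the chondrocyte progenitors and in all annotated nuclei of each tissue 0 genes were called under each alternative.

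With nuclei of at least 2000 detected genes the log2 ratio of the member sum was 1.88 for GNPs over differentiated granule neurons, against 2.15 as reported, and 1.16 for CP2 over CP5, against 1.05, and the genotype difference in GNPs was 0.0061, against 0.068. That difference was 0.099 with TMM scaling and 0.10 for levels above those of differentiated granule neurons, an alternative chosen after seeing the data. The cause was not tested. Leaving out a library leaves 1 genotype with a single batch, so that the ratio of genotype means is no longer a within-batch difference and moves with the batch by construction. It was then 0.0062 to 0.13 in GNPs and -0.19 to 0.24 in all annotated PF/F nuclei, where batch 1 was at 1.26 times batch 2, and it says nothing about the stability of the within-batch difference.

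The share of rich nuclei follows the limit and the depth by construction. With at least 2 member UMIs it was 91.2% in GNPs, 32.5% in differentiated granule neurons and 38.6% in CP2, and with at least 5 it was 60.4%, 3.72% and 11.7%. Thinned to 1000 UMIs it was 65.8%, 7.82% and 16.3%, thinned to 2500 UMIs 94.1%, 29.4% and 37.2%, and without thinning 93.7%, 41.5% and 57.4%. GNPs were above CP2, and CP2 above differentiated granule neurons, in each.

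Each library was left out in turn, an alternative chosen after seeing the data, and members were counted in the 3 libraries left. In the chondrocyte progenitors 0 to 5 members were higher than in matured chondrocytes, against 36.6% to 38% of genes. In osteoblasts 21 to 27 were higher than in their matured type, against 31.4% to 31.8% of genes. With all 4 libraries it was 20 members. In both PF/F pairs 38 were higher, against 49.7% to 50.5% of genes in the GNP pair and 39.5% to 41% in the GABAergic pair.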
